A study of Solanum lycopersicum with 9 samples.

Results

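The photosystem and light-harvesting genes measured here are 9 genes of the tomato chloroplast: CAB4, CAB5, CAB6A, PSBO, PSBP, PsbQ, PSBR, PETE and POR2. They were chosen by whole gene symbol in the platform annotation, case ignored, and each had 1 probe set, so 9 of 10038 probe sets (802 named genes) are described. All 9 matched a RefSeq tomato gene by Entrez identifier. The fruit was red ripe mesocarp of the cultivar Money Maker from greenhouse plants under 16 h of light. The groups were the antisense line AS5, the antisense line AS17 and wild type (WT), with 3 pools each. Both lines carry an antisense construct against Asr1, a gene named for abscisic acid, stress and ripening, and WT carries none. Per the series' design text, a pool held the mesocarp of 2 fruits, and the pools of a line came from 3 plants. The promoter of the construct is not given in the sources used here, and the silencing is represented by 2 lines, so n counts pools and not independent lines. The level of Asr1 itself was not analysed here.

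Thylakoids of green fruit hold photosystem II, which splits water, and photosystem I, and each is fed by chlorophyll-binding antenna proteins. As tomato fruit ripens, chloroplasts become chromoplasts: chlorophyll is broken down, thylakoids are taken apart and carotenoids are deposited. Transcripts of nuclear photosynthesis genes are known to decline through this change, so levels at the red stage are residual. In a pool of tissue, fewer cells with a transcript and less transcript per cell cannot be told apart.

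Most markers of ripe fruit were bright in all groups, but some were not level between them. E8, an ethylene-responsive ripening gene, lay between 11.77 and 12.12 on the log2 scale in silenced pools and between 11.63 and 11.82 in WT pools, and PG2, the ripening polygalacturonase, between 11.88 and 12.31 against 11.80 to 12.11. The mean of the 17 ripe-fruit probe sets was 8.81 to 9.08 in silenced pools and 8.49 to 8.74 in WT pools, without overlap. This mean includes 1 Psy1 probe set at 4.33 to 7.52 in silenced pools and 1.40 to 2.37 in WT pools. Its values in WT pools 1 and 3 were not above background. The median change of the 17 was 0.03 for the mean of both lines, so the gap does not describe most of these markers. ACS2, an ethylene synthesis gene, was at 9.86 to 10.85 in silenced pools and 8.58 to 9.64 in WT pools, and loxC, a lipoxygenase gene, at 5.62 to 7.39 against 6.81 to 8.23, and neither passed (adjusted p = 0.131 and 0.181). PGcat was above background on 1 of 9 arrays. The part of these differences in the results below was not tested. Of 10 green-tissue markers listed, 1 was measured by name, the carbonic anhydrase gene LOC543802 (ca1), at 9.51 to 10.52 in silenced pools and 10.12 to 10.18 in WT pools. AS5 pool 3 and AS17 pool 1 stood apart from the other arrays, at -33.39 and -34.96 on the first principal component, against -12.51 for AS17 pool 3 and 4.95 to 27.16 for the other 6. Where a result rests on these 2 arrays, its value without them is given too. A background level was set on each array at the 95th percentile of 63 control probe sets for reporter genes, and lay between 1.57 and 1.98 in silenced pools and between 1.41 and 1.56 in WT pools.

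Transcripts of 8 of the 9 genes were above background in every pool of red fruit. The exception was CAB5, above background in 2 of 9 pools. None of the 9 genes differed between silenced and WT fruit at a limma adjusted p under 0.05, in either line or in the mean of both lines, or between the lines. The measured differences ran both ways. PSBP, PETE, PSBO and PSBR were lower in silenced fruit on average, and PsbQ, CAB6A and CAB4 were higher, so no single direction described the group. The values behind these statements are given by role below, on the deposited log2 scale, where a difference of 1 is a doubling. Levels of different probe sets are not compared with each other, since probes differ in response.

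**Figure D1:**
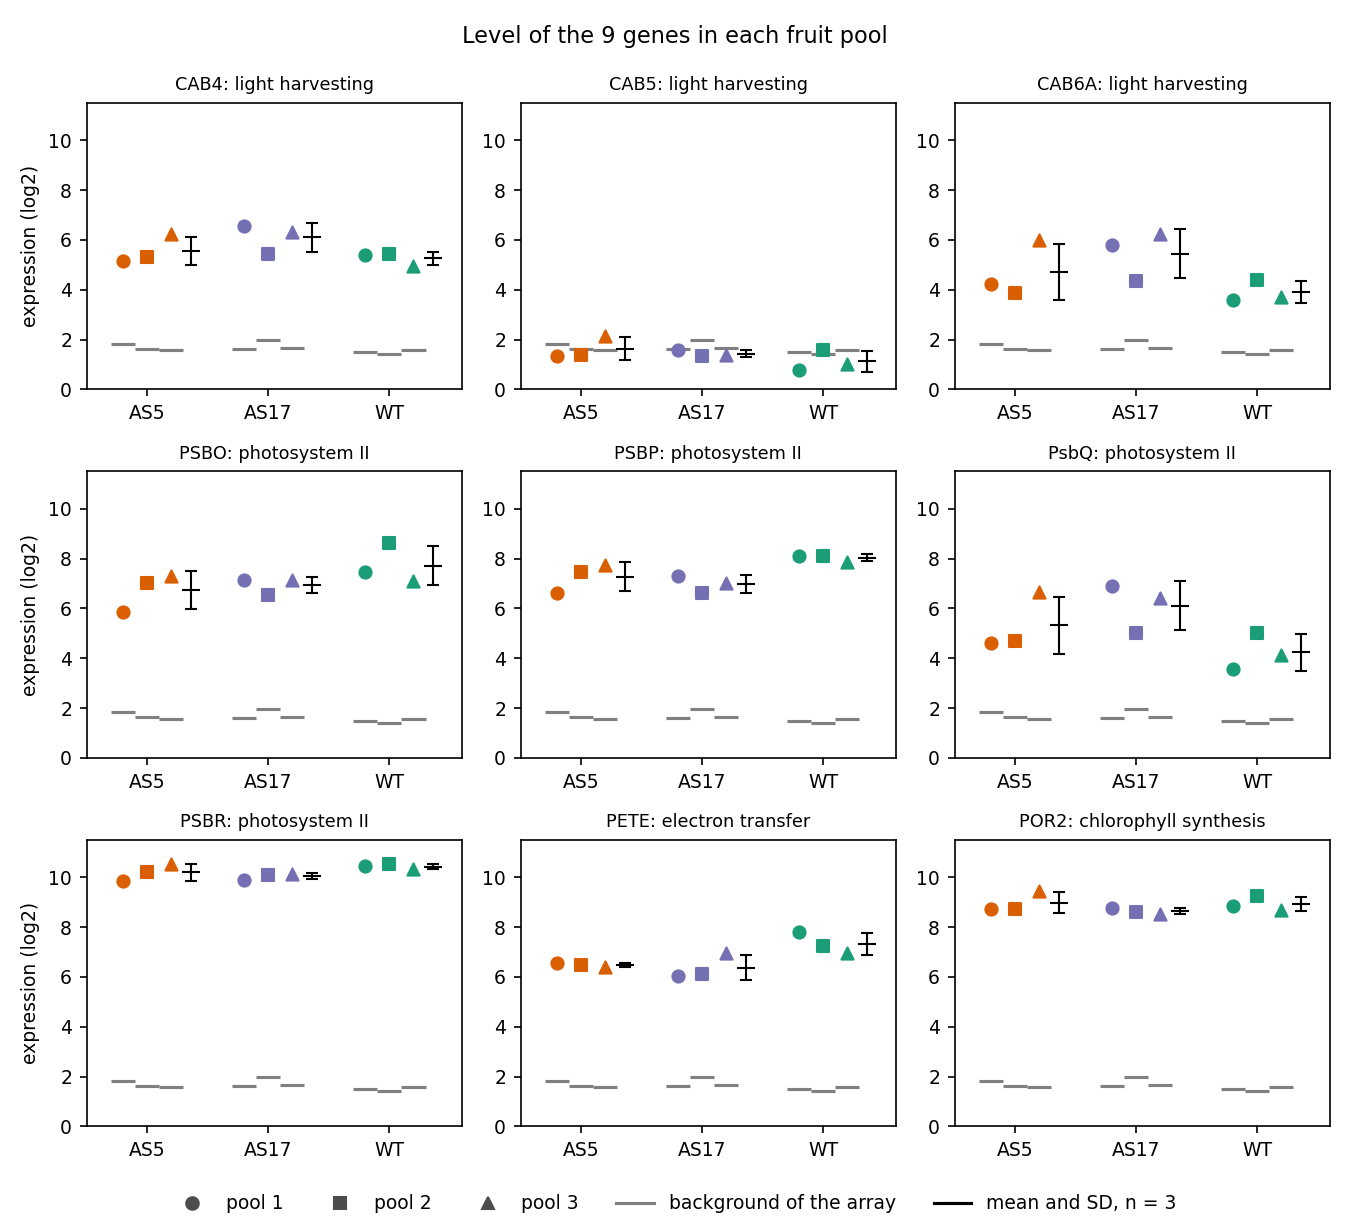
Expression (log2, vertical axis) of the 9 genes in each pool of AS5, AS17 and WT fruit (horizontal axis), with the mean and SD of 3 pools beside the points and the background of each array as a grey bar. CAB5 sits at the background bars, and the other 8 genes lie above them in all 9 pools. PSBP and PETE are the genes whose silenced pools all lie under the WT pools.

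Light harvesting was represented by CAB4 and CAB5, which encode chlorophyll a/b-binding proteins of the photosystem II antenna, and CAB6A, which encodes an antenna protein of photosystem I. Antenna genes form a family of similar sequences, and whether these probe sets also bind transcripts of other members was not checked here. CAB4 stood at 5.15, 5.30 and 6.22 in AS5 pools 1, 2 and 3, at 6.56, 5.42 and 6.31 in AS17 pools 1, 2 and 3, and at 5.40, 5.43 and 4.96 in WT pools 1, 2 and 3. AS17 pools 1 and 3 and AS5 pool 3 were above every WT pool, while the other 3 silenced pools lay within the WT range. On average over both lines CAB4 exceeded WT by 0.56 (SE 0.30, 95% interval -0.13 to 1.25, adjusted p = 0.423). In AS17 the difference from WT was 0.83 (SE 0.35, adjusted p = 0.27), and in AS5 it was 0.29 (SE 0.35, adjusted p = 0.85). Without AS5 pool 3 and AS17 pool 1 the CAB4 difference was 0.28 for the mean of both lines, 0.60 for AS17 and -0.04 for AS5.

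CAB6A showed the same arrays high, with a wider spread. It stood at 4.23, 3.88 and 5.98 in AS5 pools 1, 2 and 3, at 5.80, 4.34 and 6.22 in AS17 pools 1, 2 and 3, and at 3.58, 4.41 and 3.72 in WT pools 1, 2 and 3. The 3 highest pools were AS17 pool 3, AS5 pool 3 and AS17 pool 1, more than a log2 unit over the highest WT pool, and the other 3 silenced pools overlapped WT. On average over both lines CAB6A exceeded WT by 1.17 (SE 0.53, 95% interval -0.03 to 2.37, adjusted p = 0.334), or 0.76 without AS5 pool 3 and AS17 pool 1. The AS17 difference was 1.55 (SE 0.61, adjusted p = 0.241), or 1.38 without those arrays, and the AS5 difference 0.79 (SE 0.61, adjusted p = 0.76), or 0.15 without them.

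CAB5 was close to background. Its values were 1.35, 1.38 and 2.16 in AS5 pools 1, 2 and 3, 1.59, 1.33 and 1.38 in AS17 pools 1, 2 and 3, and 0.78, 1.58 and 1.03 in WT pools 1, 2 and 3. AS5 pool 3 and WT pool 2 were above the background of their arrays and the other 7 pools were not, so no fold is given for this gene. Its probe set did not pass in the comparison of both lines with WT (adjusted p = 0.444).

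Photosystem II was represented by PSBO, PSBP and PsbQ, the extrinsic proteins that shield the oxygen-evolving manganese cluster on the lumen side of the thylakoid, and by PSBR, a small subunit that in Arabidopsis is needed for the stable attachment of PsbP. PSBP stood at 6.63, 7.46 and 7.73 in AS5 pools 1, 2 and 3, at 7.29, 6.60 and 7.03 in AS17 pools 1, 2 and 3, and at 8.12, 8.12 and 7.86 in WT pools 1, 2 and 3. Every silenced pool was below every WT pool. Of all probe sets, 4.32% had silenced pools all below WT pools.

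The mean of PSBP in both lines was 0.91 below WT, a difference of -0.91 (SE 0.24, 95% interval -1.46 to -0.36) or 1.88-fold lower, and did not pass over all probe sets (unadjusted p = 0.00463, adjusted p = 0.125). In AS17 the difference was -1.06 (SE 0.28, adjusted p = 0.109) and in AS5 -0.76 (SE 0.28, adjusted p = 0.451). Without AS5 pool 3 and AS17 pool 1 it was -1.11 for the mean of both lines (adjusted p = 0.0536) and -1.22 for AS17 (adjusted p = 0.0551). With limma's array weights, which give noisier arrays less weight, PSBP passed for the mean of both lines (-0.96, adjusted p = 0.0294). Over all alternatives run, its adjusted p in this comparison ran from 0.0294 to 0.424.

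PSBO, which stabilises the manganese cluster, was also lower on average, with more spread. It stood at 5.86, 7.01 and 7.30 in AS5 pools 1, 2 and 3, at 7.15, 6.55 and 7.12 in AS17 pools 1, 2 and 3, and at 7.46, 8.61 and 7.08 in WT pools 1, 2 and 3. WT pool 2 was the highest by over a log2 unit and AS5 pool 1 the lowest, and WT pool 3 lay among the silenced pools. The mean of both lines differed from WT by -0.89 (SE 0.39, 95% interval -1.78 to 0.01, adjusted p = 0.327). With 1 array left out, this difference ran from -1.21 to -0.44, and the smaller size was the one without WT pool 2.

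PsbQ, the third extrinsic protein, had the widest spread and the opposite sign. It stood at 4.63, 4.69 and 6.65 in AS5 pools 1, 2 and 3, at 6.88, 5.0 and 6.42 in AS17 pools 1, 2 and 3, and at 3.56, 5.03 and 4.15 in WT pools 1, 2 and 3. AS17 pool 1, AS5 pool 3 and AS17 pool 3 were above every WT pool, as for CAB4 and CAB6A, and WT pool 2 lay above the other 3 silenced pools. PsbQ averaged over both lines was 1.46 above WT (SE 0.57, 95% interval 0.17 to 2.75, unadjusted p = 0.0308), or 2.75-fold, and did not pass over all probe sets (adjusted p = 0.267). It was 0.94 without AS5 pool 3 and AS17 pool 1. The AS17 difference was 1.85 (SE 0.66, adjusted p = 0.199), or 1.46 without those arrays, and the AS5 difference 1.07 (SE 0.66, adjusted p = 0.679), or 0.41 without them.

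PSBR varied least of the 9 genes. It stood at 9.85, 10.20 and 10.53 in AS5 pools 1, 2 and 3, at 9.90, 10.10 and 10.13 in AS17 pools 1, 2 and 3, and at 10.44, 10.52 and 10.31 in WT pools 1, 2 and 3. The AS17 pools were all below the WT pools, as in 12.5% of all probe sets for that line, and AS5 pool 3 was the highest of all. The mean of both lines differed from WT by -0.30 (SE 0.15, 95% interval -0.64 to 0.03, adjusted p = 0.37).

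PETE encodes plastocyanin, the copper protein that carries electrons to photosystem I. It stood at 6.57, 6.49 and 6.41 in AS5 pools 1, 2 and 3, at 6.05, 6.13 and 6.94 in AS17 pools 1, 2 and 3, and at 7.80, 7.22 and 6.95 in WT pools 1, 2 and 3. Every silenced pool was below every WT pool, as in 4.32% of all probe sets. AS17 pool 3, at 6.94, was just under WT pool 3, at 6.95. The mean of both lines was 1.85-fold lower than WT, a difference of -0.89 (SE 0.23, 95% interval -1.42 to -0.36, unadjusted p = 0.00438), and did not pass over all probe sets (adjusted p = 0.122). AS17 differed from WT by -0.95 (SE 0.27, adjusted p = 0.129) and AS5 by -0.83 (SE 0.27, adjusted p = 0.37). Without AS5 pool 3 and AS17 pool 1 the difference for the mean of both lines was -0.79 (adjusted p = 0.158). PETE passed with array weights (-0.96, adjusted p = 0.041), and its adjusted p ran from 0.041 to 0.442 over the alternatives run.

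POR2 encodes a protochlorophyllide reductase, the light-dependent step of chlorophyll synthesis. It stood at 8.74, 8.71 and 9.46 in AS5 pools 1, 2 and 3, at 8.77, 8.59 and 8.53 in AS17 pools 1, 2 and 3, and at 8.84, 9.25 and 8.68 in WT pools 1, 2 and 3. The groups overlapped, with AS5 pool 3 and WT pool 2 highest. The mean of both lines differed from WT by -0.12 (SE 0.19, 95% interval -0.56 to 0.32, adjusted p = 0.814), an interval that excludes a doubling in either direction.

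**Figure D2:**
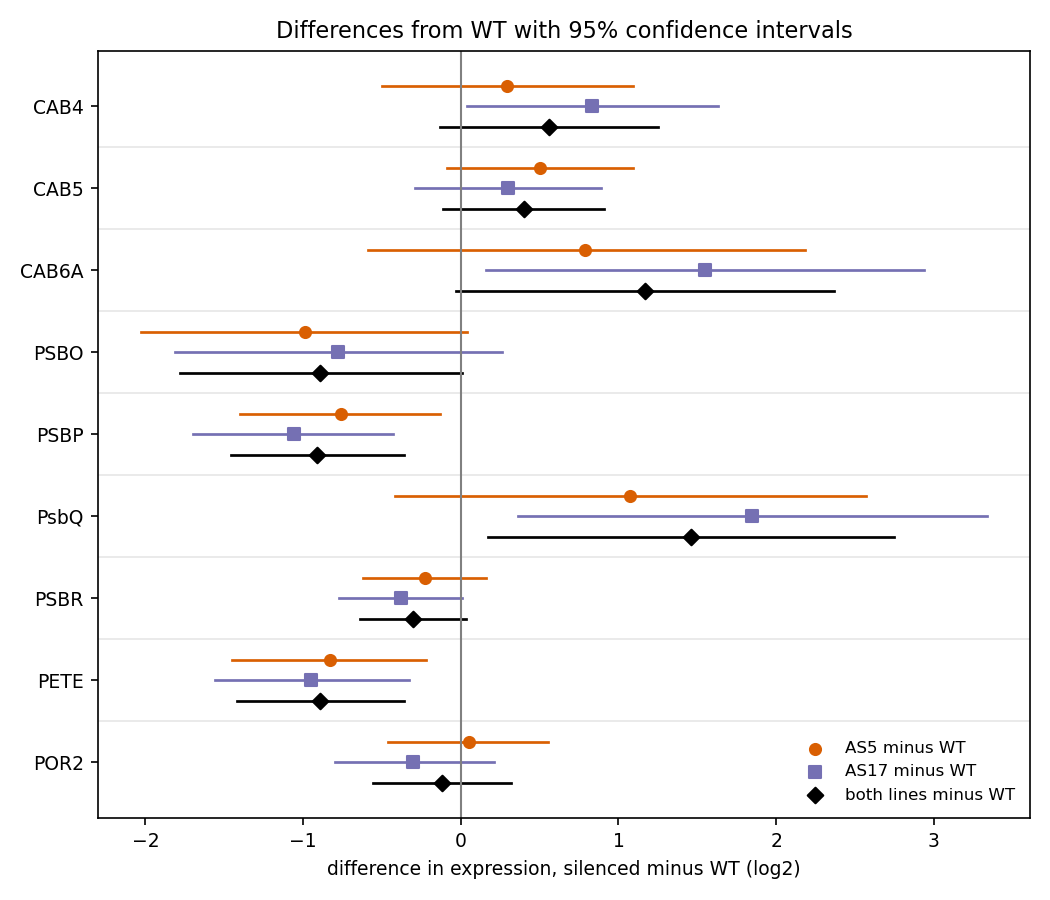
Difference in expression between silenced and WT fruit (log2, horizontal axis) for each gene, with 95% confidence intervals, for AS5, AS17 and the mean of both lines. PSBP and PETE have intervals under 0 in all 3 comparisons. The interval of PsbQ lies above 0 for AS17 and the mean of both lines, and those of CAB6A and CAB4 for AS17. None passed after adjustment over all probe sets.

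Counted together, 0 of 9 genes passed for the mean of both lines, against 1.28% of all probe sets. At an unadjusted p under 0.05 there were 3 of 9 (PSBP, PETE and PsbQ), against 15.5% of all probe sets. For AS17, 0 of 9 passed, against 1.34% of all, and 5 of 9 had an unadjusted p under 0.05 (PSBP, PETE, PsbQ, CAB6A and CAB4), against 17.3%. For AS5, 0 of 9 passed, against 0.379% of all, and 2 of 9 had an unadjusted p under 0.05 (PETE and PSBP), against 9.24%. The median change of the 9 genes was -0.12 for the mean of both lines, beside 0.00 over all probe sets. Both line comparisons subtract the same WT arrays, so their agreement in sign is not a separate result.

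Between the lines, 0 of 9 genes differed in limma (adjusted p from 0.888 to 0.984), and 0 of 9 had an unadjusted p under 0.05, against 5.89% of all probe sets. Of all probe sets, 0.0% passed. The widest differences, AS17 minus AS5, were 0.78 for PsbQ (95% interval -0.72 to 2.27) and 0.76 for CAB6A (-0.63 to 2.14). Differences of over a log2 unit are not excluded for those genes, nor for CAB4 (-0.26 to 1.33) and PSBO (-0.82 to 1.25). For PSBR and PETE the intervals were -0.54 to 0.24 and -0.73 to 0.50.

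The order of the pools differed among the genes, as seen after their values were known. In PsbQ, CAB6A and CAB4 the highest pools were AS5 pool 3, AS17 pool 1 and AS17 pool 3, as in 7.61% of all probe sets. In PSBP and PETE the highest pools were the 3 of WT. PSBO and PSBR had WT pool 2 or AS5 pool 3 highest and AS5 pool 1 lowest, POR2 was highest in AS5 pool 3 and WT pool 2, and CAB5 was near background. Among the extrinsic proteins, the correlation over the 9 arrays was 0.81 for PSBO with PSBP, 0.06 for PSBO with PsbQ and -0.25 for PSBP with PsbQ. PSBO minus PSBP within an array was between -0.77 and 0.09 in silenced pools and between -0.78 and 0.49 in WT pools, which overlap. PsbQ minus PSBP was between -2.77 and -0.42 in silenced pools and between -4.56 and -3.09 in WT pools, and PsbQ minus PSBO between -2.32 and -0.27 against -3.90 to -2.93. The differences with PsbQ did not overlap between silenced and WT pools, and the share of all gene pairs that do so is not given here. PSBP alone did not overlap either. The within-array differences were chosen after the values were seen and are given without a test.

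**Figure D3:**
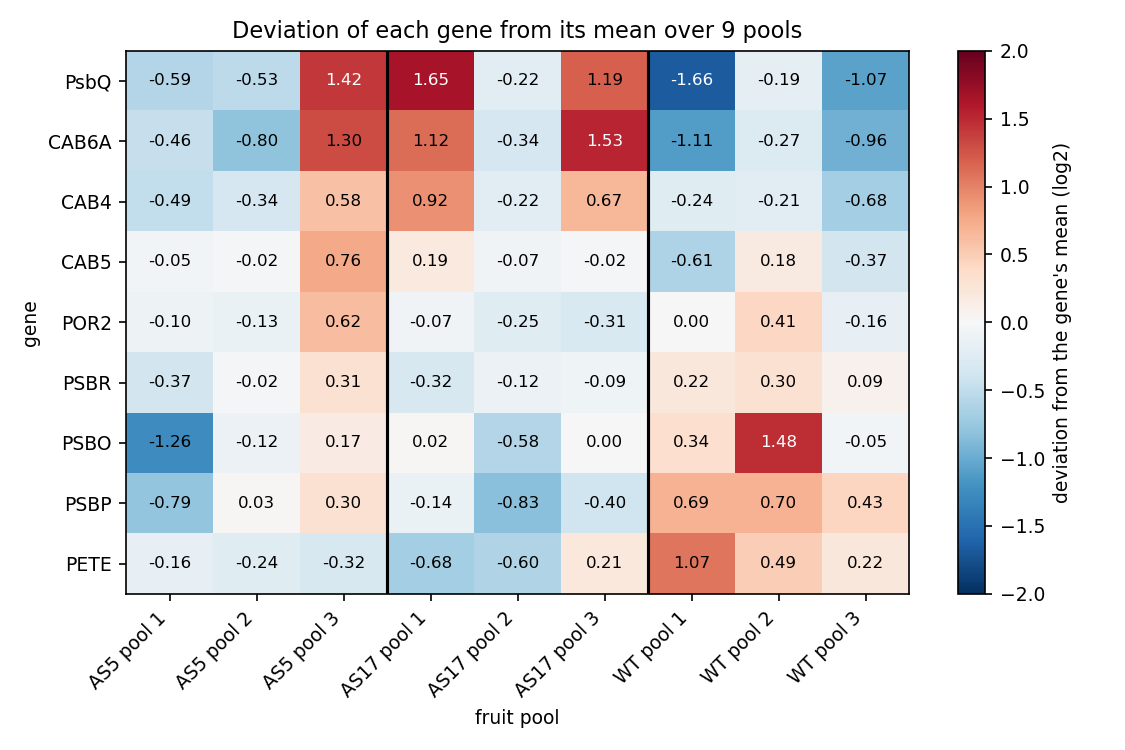
Deviation of each gene from its own mean over the 9 pools (log2, colour and printed value), with genes as rows and pools of AS5, AS17 and WT as columns. PsbQ, CAB6A and CAB4 are highest in AS5 pool 3, AS17 pool 1 and AS17 pool 3, and PSBP and PETE are highest in the WT pools.

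Over the 9 arrays, 15 of the 21 pairs among the 7 genes other than PETE that were above background in every pool had a positive correlation and 6 a negative one. The range was -0.25, for PSBP with PsbQ, to 0.96, for CAB6A with PsbQ, with a median of 0.20. Without AS5 pool 3 and AS17 pool 1, 12 were positive and 9 negative (-0.47 to 0.95). With group means removed, which leaves the variation among pools of a group, all 21 pairs were positive, from 0.49 to 0.94 with a median of 0.71. Without AS5 pool 3 and AS17 pool 1 these 21 values ran from 0.07 to 0.91 with a median of 0.48. Over all pairs of the 7315 probe sets above background on every array, with group means removed on 9 arrays, the median was 0.02, 51.5% were positive and 20.7% exceeded 0.49. PETE with the same 7 genes gave -0.19 to 0.18 with group means removed, and -0.01 to 0.83 without AS5 pool 3 and AS17 pool 1. On the 9 arrays, 5 of these pairs with PETE were positive and 2 negative, so all pairs were positive only with PETE left out. The genes share arrays, and the arrays a first principal component, so these correlations are a description without a test.

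**Figure D4:**
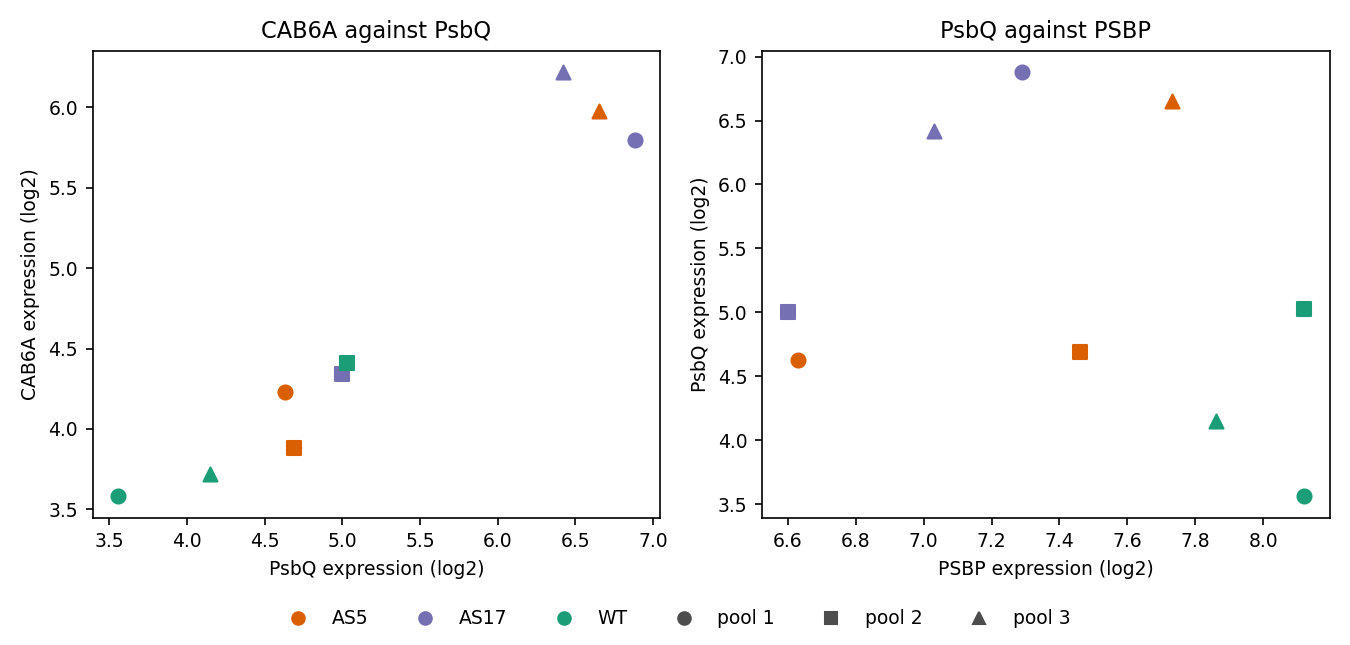
Expression (log2 on both axes) of CAB6A against PsbQ (left) and of PsbQ against PSBP (right), 1 point per pool, coloured by line, with marker shape for pool number. On the left, AS5 pool 3, AS17 pool 1 and AS17 pool 3 form a group at the upper right. On the right, silenced and WT pools separate along PSBP. PsbQ minus PSBP, chosen after the values were seen, was -2.77 to -0.42 in silenced pools and -4.56 to -3.09 in WT pools.

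The spread between pools of a group differed among the genes. The residual standard deviation was 0.97 for PsbQ, 0.90 for CAB6A, 0.67 for PSBO and 0.50 for CAB4, and 0.22 for PSBR, beside a median of 0.23 over the 7315 bright probe sets. PsbQ exceeded 99.0% and CAB6A 98.7% of those probe sets in spread, so a difference of the size measured for PSBP would be harder to detect in these genes. Other measures moved with the PsbQ pattern. The 2 measured genes that were listed as vascular markers averaged 4.49, 4.73 and 4.47 in AS5 pool 3, AS17 pool 1 and AS17 pool 3. Their average was 3.58 to 4.32 in the other silenced pools and 3.02 to 3.74 in WT pools. This came from TPRP-F1, a proline-rich protein gene, at 2.25 to 4.24 in silenced pools and 0.99 to 2.52 in WT pools, since the sucrose transporter gene SUT2 stayed within 4.92 to 5.23 and 4.95 to 5.11. The 3′ minus 5′ signal of ubiquitin, a sign of RNA quality, was lowest in the same 3 pools, at 1.12 in AS5 pool 3, 1.36 in AS17 pool 1 and 1.41 in AS17 pool 3, against 1.42 to 1.75 in the other 6. That of gapdh was 0.619 and 0.550 in AS5 pool 3 and AS17 pool 1 and 1.01 in AS17 pool 3, against 0.830 to 1.06 in the other 6. The part of these measures in the result was not tested.

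Genes with profiles most like the mean of the 8 genes above background were ranked by Pearson correlation over the 9 arrays among 900 other named probe sets. The mean profile was highest in AS5 pool 3, at 0.55, and lowest in AS5 pool 1, at -0.53. The 5 nearest were LOC543855 (a WRKY gene by its synonym, r = 0.92, or 0.90 without AS5 pool 3 and AS17 pool 1), LOC543937 (0.92, or 0.86), SNF1, a kinase of the SnRK family (0.91, or 0.87), GAL83, a regulatory subunit of such kinases (0.88, or 0.88) and Sip1 (0.88, or 0.79). With group means removed they were LOC543639, LOC778242, SNF1, LOC544217 and Sip1 (0.96 to 0.99, or 0.94 to 0.99 without AS5 pool 3 and AS17 pool 1). Of all probe sets other than the 9 genes, 0.349% had r over 0.9 with the mean profile. With group means removed the share was 2.4%. These genes were selected for high correlation, so no p is given.

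The rest of the photosynthetic apparatus was thinly represented by name. Of the other light-harvesting and photosystem genes listed, 1 was found, LOC543978, the psaD gene of photosystem I, whose product docks ferredoxin. It stood at 4.08, 4.64 and 4.54 in AS5 pools 1, 2 and 3, at 3.75, 4.03 and 4.47 in AS17 pools 1, 2 and 3, and at 4.39, 5.01 and 4.33 in WT pools 1, 2 and 3. The groups overlapped, and the mean of both lines differed by -0.33 (SE 0.22, adjusted p = 0.524). Among genes listed under carbon fixation, ca1 did not pass (-0.13, SE 0.19, adjusted p = 0.801). The 6 probe sets of ca2 and TPI, matched by symbol alone, so that their place in this list is uncertain, were at or below background on all arrays. GSA-AT, which makes the aminolevulinic acid that chlorophyll is built from, was at 6.38 to 7.05 in silenced pools and 6.50 to 7.02 in WT pools (-0.19, SE 0.17, adjusted p = 0.643). In these 3 lists 0 of 9 probe sets passed in either direction.

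Among regulators of the fruit chloroplast and of light responses, 0 of 13 probe sets (12 genes) passed in either direction, with a median change of -0.12 for the mean of both lines. DET1, a repressor of light responses whose loss gives the dark-green high-pigment fruit, had the smallest p. It stood at 4.89, 5.19 and 4.78 in AS5 pools 1, 2 and 3, at 4.37, 5.05 and 4.71 in AS17 pools 1, 2 and 3, and at 5.58, 5.30 and 5.15 in WT pools 1, 2 and 3. The groups overlapped by AS5 pool 2, and the difference of -0.51 (SE 0.17) did not pass (adjusted p = 0.21). HY5, a light-response transcription factor, was at 7.38, 7.09 and 7.17 in AS5 pools 1, 2 and 3, at 5.91, 6.96 and 6.54 in AS17 pools 1, 2 and 3, and at 7.13, 7.15 and 7.48 in WT pools 1, 2 and 3. Its AS17 pools were below all WT pools, as in 12.5% of all probe sets for that line. The AS17 difference of HY5, -0.79, did not pass (adjusted p = 0.15). AS17 pools were also all below WT pools for DET1, CUL4 (6.78 to 7.34 against 7.40 to 7.48) and DDB1 (7.76 to 8.14 against 8.21 to 8.31). For the brighter CRY1A probe set they were all above, at 6.98 to 7.47 against 6.17 to 6.73. The share of all probe sets in that direction is not given here. The blue-light receptor gene CRY1A had a difference of 0.53 (SE 0.28) and CUL4, a ubiquitin ligase scaffold that acts with DDB1 and DET1, one of -0.20 (SE 0.13), for the mean of both lines (adjusted p = 0.406 and 0.528).

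**Figure D5:**
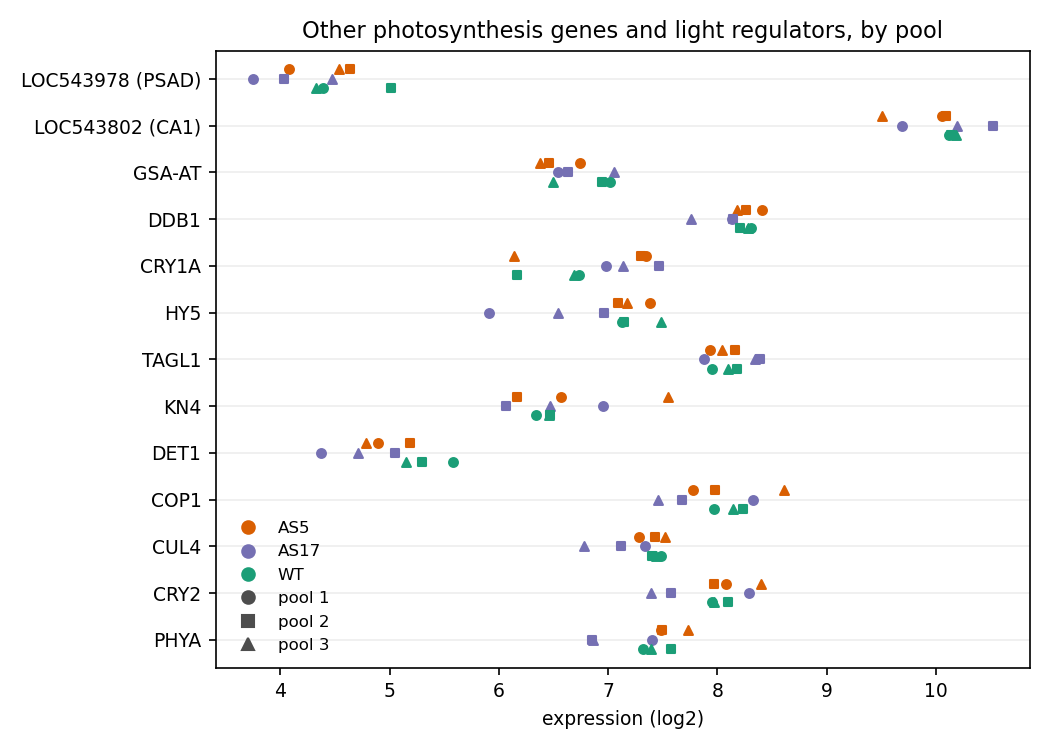
Expression (log2, horizontal axis) of the other photosynthesis, chlorophyll and light-regulator probe sets above background on every array (rows), with 1 point per pool of AS5, AS17 and WT and marker shape for pool number. Silenced and WT pools overlap in every row, DET1 by 1 AS5 pool.

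Genes of the chromoplast and of carotenoid synthesis were listed in the same way, without sorting them by type of plastid. Of 14 probe sets (12 genes), 1 rose and 1 fell for the mean of both lines, against 1.28% of all probe sets called. The median change was -0.07. Both calls were near the threshold, and values of these 2 probe sets under the alternatives are not given here. PSY2, a phytoene synthase gene, fell by 0.61 (SE 0.12, adjusted p = 0.0471), with 4.09 to 4.69 in silenced pools against 4.96 to 5.14 in WT pools. The probe set that rose was 1 of 3 for Psy1, at 4.33 to 7.52 in silenced pools and 1.40 to 2.37 in WT pools (adjusted p = 0.0421). In WT 2 of 3 pools were not above background, so no size is given for it, and the brightest Psy1 probe set did not pass (-0.09, SE 0.09, adjusted p = 0.69). PDS, a phytoene desaturase gene, had the next smallest p. Its silenced pools, at 6.84 to 7.56, were all below its WT pools, at 7.63 to 8.03, as in 4.32% of all probe sets. The PDS difference of -0.60 (SE 0.18) did not pass (adjusted p = 0.159). ChrC, for a carotenoid-associated fibrillin of chromoplasts, was at 10.86 to 11.27 in silenced pools and 10.91 to 11.13 in WT pools (0.03, SE 0.12, adjusted p = 0.938). PTOX, the plastid terminal oxidase that takes electrons from carotene desaturation, did not pass either (-0.21, SE 0.13, adjusted p = 0.489).

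A further list of 13 plastid genes was drawn up after the data were seen. For the mean of both lines 0 of its 15 probe sets passed, with a median change of -0.05. The smallest p was that of Fad7, a chloroplast fatty acid desaturase, which stood at 4.68 to 5.74 in silenced pools and 5.70 to 6.46 in WT pools (-0.86, SE 0.25, adjusted p = 0.154). It was also the named probe set most like PETE over the 9 arrays (r = 0.92, also without AS5 pool 3 and AS17 pool 1). The nearest to PsbQ was OPR3 (0.99, or 0.99 without those arrays), to CAB6A LOC543929 (0.98, or 0.97) and to CAB4 Sip1 (0.95, or 0.94). LOC544081 was nearest to PSBO (0.93, or 0.93), P18 to PSBP (0.88, or 0.92) and Hxk2 to POR2 (0.94, or 0.90). For CAB5 it was help1 (0.91, or 0.86), and for PSBR TAPG1 (0.90, or 0.86), above background on no array. None of these is on the plastid list.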

How the data were processed

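Expression was measured on 9 Affymetrix tomato arrays, and the authors deposited log2 values for 10209 probe sets, made with RMA per the submitters' processing notes. RMA subtracts background, equalises the arrays' distributions and combines the probes of a set. Its version, settings and probe definitions are not given in the sources used here. No detection calls or probe sequences were used. Tests excluded the 171 control probe sets. Gene symbols came from an old platform annotation, with synonyms from the RefSeq tomato gene table (assembly SLM_r2.1). A synonym that is another gene's symbol did not count.

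The limma package (version 3.58.1, under R 4.3.3) fitted 1 mean per group over all 9 arrays with lmFit and eBayes to all 10038 probe sets, with Benjamini-Hochberg adjustment over all of them and a call at adjusted p under 0.05. Errors of differences are limma's standard errors (SE). With 3 pools a group, the number of arrays limits the precision. The code was tested on simulated data. All 9 genes were named. From each list, genes that passed in any comparison were named, and otherwise up to 4 with the smallest p. Outside this rule, PDS, ChrC and PTOX were named from the chromoplast list, and some tissue and ripening markers were named too. Members and lists were chosen with earlier results of these data known. Alternatives covered normalisation, a filter on dim probe sets, array weights, the variance model, a block for pool number, the groups fitted, the threshold and leaving out arrays. Plots used matplotlib 3.10.9 (Python 3.11.15).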

Additional observations from a re-analysis of the deposited data

How the results depend on the processing

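The count of 0 of 9 genes past the threshold was the same under every alternative run in each comparison, also with pool number as a replicate block and at an adjusted p under 0.1, except that array weights gave 2 (PSBP and PETE) for the mean of both lines, where they also raised the count over all probe sets to 556 from 128. The cause was not tested. With 1 array left out, the count was 0 throughout. Over all probe sets the number called at an adjusted p under 0.05 moved more: from 27 to 556 for the mean of both lines, 18 to 200 for AS5 and 20 to 315 for AS17, against 128, 38 and 135, and 78, 27 and 74 under the replicate block. At an adjusted p under 0.1 it was 252, 58 and 354. Of 635 recomputed differences of single genes, 619 kept their direction and side of the threshold, 2 crossed it and 14 changed sign, none of them called. With 1 array left out, POR2 for the mean of both lines ran from -0.25 to 0.04. In AS5 against WT, CAB4 ran from -0.04 to 0.49 and POR2 from -0.20 to 0.21 in the same way. Without AS5 pool 3 and AS17 pool 1 they were -0.04 and -0.20, and POR2 was -0.09 with array weights. In AS17 against AS5 with 1 array left out, CAB5 ran from -0.34 to 0.07, PSBO from -0.21 to 0.50, PSBR from -0.32 to 0.02 and PETE from -0.40 to 0.04, and without both arrays PSBR was 0.09 and PETE 0.00. Deviations of same-numbered pools from their group means correlated between -0.379 and 0.546, and of differently numbered pools between -0.683 and 0.555. These ranges overlap and cannot decide whether pool numbers pair the samples. The fit on only the groups compared was not run for the mean of both lines, which needs all groups. The correlations with group means removed and without 2 arrays were chosen after seeing the data. With the maximum of the reporter controls as background, 8 of 9 genes were above it in every pool, as with the 95th percentile. Only 3 pools a group limit what could be detected.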

Other observations

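The arrays carry control probe sets for phytochrome B2, a red-light receptor, which entered none of the tests. The 3′ probe set read 6.53, 6.52 and 6.14 in AS5 pools 1, 2 and 3, 6.25, 6.62 and 5.84 in AS17 pools 1, 2 and 3, and 6.55, 6.70 and 6.47 in WT pools 1, 2 and 3. The pools where PsbQ, CAB6A and CAB4 were highest were the 3 lowest for it. The middle and 5′ probe sets of the same gene were at 0.504 to 0.995 on all arrays, at or below background.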
